A study of Mus musculus with 24 samples.

Results

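The genes examined here were 7 genes of the red cell lineage, Hba-a1, Hba-a2, Hbb-bs, Hbb-bt, Alas2, Slc4a1 and Klf1, out of 55401 genes counted in 24 tumors. They were picked by symbol, through the Ensembl identifiers that GENCODE M21 pairs with these names. Hba-a1 and Hba-a2 encode the alpha chain of adult hemoglobin, and Hbb-bs and Hbb-bt encode its beta chain. Alas2 encodes the erythroid form of the enzyme that begins heme synthesis. Slc4a1 encodes band 3, the anion exchanger of the red cell membrane, and Klf1 encodes a transcription factor that switches on adult beta globin and many other erythroid genes.

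Red cells arise in the marrow from precursors that first depend on GATA1 and KLF1, then fill with globin and heme, and finally expel the nucleus. Young red cells leave the marrow as reticulocytes, which still carry much globin mRNA and some Alas2 mRNA but have stopped transcription. Circulating blood in a tumor therefore brings globin mRNA with little mRNA of the regulators, whereas marrow precursors carry both.

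The tumors were grown from TC2Ras, a mouse prostate adenocarcinoma line, in male C57/BL6 mice of 8 to 10 weeks of age. For the bone model, 100000 luciferase-marked TC2Ras-Luc cells were placed in each tibia, and tumors were taken on day 14 (3 mice per group) or at the end of the study, EOS (2 mice per group). The 4 bone groups received empty vector with the vehicle polyvinylpyrrolidone (PvP; control), IL-27 vector with PvP (IL-27), empty vector with cabozantinib (cabo), or both agents (IL-27+cabo). Cabozantinib is an oral inhibitor of receptor tyrosine kinases that include those of the vascular endothelium, and IL-27 is a cytokine that was supplied here as a plasmid delivered into leg muscle. For the subcutaneous model, 300000 TC2Ras cells were placed in each flank and tumors were taken after 1 week, with empty vector (2 tumors) or IL-27 vector (2 tumors). All tumors come from 1 transplanted line, no group is a tumor-free marrow or blood sample, and a daily course of cabo ended at about the time of the day 14 harvest. The bone tumors carry mouse numbers and are separate mice. Nothing states that the subcutaneous tumors came from separate animals, so p-values there measure only the spread between these samples, which may be technical.

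Libraries held 63729005 to 83782258 counts and detected 21269 to 24028 genes. The IL-27+cabo tumor of mouse 20 on day 14 stood apart. It had the fewest genes detected, 122 CPM (counts scaled to a common library size) of Alad against 15.9 to 27.4 CPM in the other day 14 tumors, and 242 CPM of the platelet chemokine Pf4. Fold changes that rest on it, and correlations over all bone tumors, are followed by values without it.

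The promoters of the members are shown because the 4 globins and Alas2 differ in the short elements that erythroid factors recognize, and because the windows show how alike the gene copies are. RefSeq windows of 120 bases ending just before the annotated start were found for 6 of the 7 members (build GRCm38.p6, written 5′ to 3′ on the gene's own strand). Capitals mark every match, on either strand, to 4 short motifs spelled out after them, and no matches overlapped.
Hba-a1 (chr11:32283552-32283671, plus strand): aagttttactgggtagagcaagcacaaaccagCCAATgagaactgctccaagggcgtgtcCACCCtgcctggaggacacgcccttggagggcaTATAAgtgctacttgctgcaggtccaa
Hba-a2 (chr11:32296372-32296491, plus strand): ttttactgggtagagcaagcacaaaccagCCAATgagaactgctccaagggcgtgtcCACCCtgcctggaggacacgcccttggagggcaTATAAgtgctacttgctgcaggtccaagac
Hbb-bs (chr7:103827929-103828048, minus strand): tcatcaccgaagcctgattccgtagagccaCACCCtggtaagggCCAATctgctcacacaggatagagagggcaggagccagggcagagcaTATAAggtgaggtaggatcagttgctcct
Hbb-bt (chr7:103813924-103814043, minus strand): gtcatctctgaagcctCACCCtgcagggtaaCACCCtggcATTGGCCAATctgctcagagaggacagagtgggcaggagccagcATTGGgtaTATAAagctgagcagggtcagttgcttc
Alas2 (chrX:150547297-150547416, plus strand): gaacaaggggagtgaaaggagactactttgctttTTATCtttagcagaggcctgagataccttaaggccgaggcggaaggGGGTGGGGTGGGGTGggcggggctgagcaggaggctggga
Klf1 (chr8:84901862-84901981, plus strand): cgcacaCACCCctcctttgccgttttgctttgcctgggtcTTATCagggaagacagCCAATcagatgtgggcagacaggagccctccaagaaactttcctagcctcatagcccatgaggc
GATAA is the core recognized by GATA factors, CACCC that of KLF factors, CCAAT the CCAAT box and TATAA the TATA box. All 6 windows held CACCC, which 31.7% of 32817 mouse promoter windows of this length also held. All 4 globin windows held CCAAT (21.3% of all windows) and TATAA (11.9%). GATAA (10.5% of all windows) was in the windows of Alas2 and Klf1 and in none of the globin windows, which says only that these letters are not in these 120 bases. Alas2 had 3 adjacent CACCC matches on the opposite strand, and Hbb-bt had 2 CACCC and 3 CCAAT matches where Hbb-bs had 1 of each.

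The windows of Hba-a1 and Hba-a2 were 95.1% identical, and those of Hbb-bs and Hbb-bt were 75% identical. The coding sequences were closer still, at 428 of 429 bases for the alpha pair and 443 of 444 bases for the beta pair. The division of reads within each pair is therefore uncertain, and the 2 copies are not independent measurements. In GENCODE M21 (GRCm38), Hba-a1 (ENSMUSG00000069919) lies at chr11:32283511-32284465 and Hba-a2 (ENSMUSG00000069917) at chr11:32296489-32297298, both on the plus strand. Hbb-bs (ENSMUSG00000052305) lies at chr7:103826534-103828096 and Hbb-bt (ENSMUSG00000073940) at chr7:103812524-103813996, both on the minus strand. Alas2 (ENSMUSG00000025270) lies at chrX:150547375-150570638 on the plus strand, Slc4a1 (ENSMUSG00000006574) at chr11:102348824-102366203 on the minus strand, and Klf1 (ENSMUSG00000054191) at chr8:84901928-84905291 on the plus strand.

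Globin mRNA was scarce in every tumor. The 4 globins together made up 0.00137% to 0.0460% of a library, or 13.8 to 473 CPM. Per kilobase of exon, the median level over 24 tumors was 35.9 CPM per kb for Hbb-bs, 25.7 for Hba-a1, 19.2 for Hba-a2 and 10.5 for Hbb-bt. On the same scale Alas2 stood at 0.732 CPM per kb and Slc4a1 at 0.0892 CPM per kb. Hbb-bs, the most abundant member, ranked 6830 of 55401 genes by median CPM in the bone tumors. In bulk tissue, fewer cells of a type and less RNA per cell cannot be told apart.

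Klf1 was at the limit of detection. It had 0 counts in 16 of 24 tumors, where 3 counts, the limit that a count of 0 allows, would be 0.0357 to 0.0559 CPM. The other 8 tumors shared 53 counts, with at most 14 in any tumor (0.192 CPM, in control mouse 7 on day 14), and Klf1 passed the count filter in no comparison. Other genes that mark nucleated precursors were as sparse. Gata1, Gfi1b and Epb42 (protein 4.2) each had 0 counts in 18 of 24 tumors, the Rh-associated gene Rhag in 16, the blood-group gene Kel in 19 and the late erythroid gene Tspo2 in 21. The embryonic globins Hbb-bh1 and Hbb-bh2 had 0 counts in all 24 tumors, and Hbb-y and Hba-x in 23. The exception among the other globins was the theta-like gene Hbq1b, with a median of 1.49 CPM and 0 counts in 1 tumor. Intervals and limits of this kind cover counting error only.

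**Figure D1:**
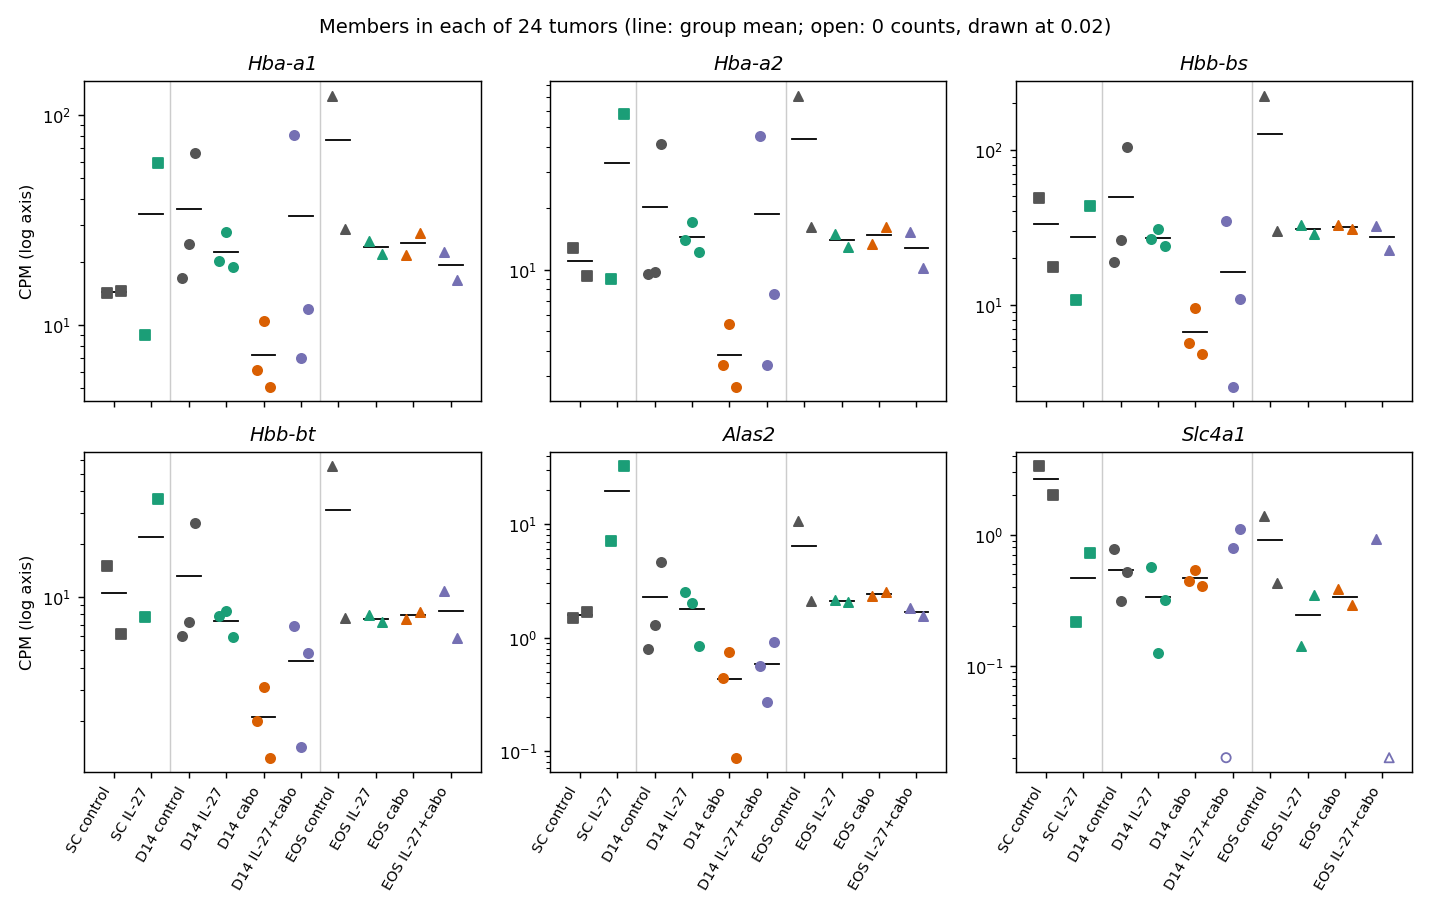
Each point is 1 of 24 tumors and each panel a gene, with CPM on a log axis, group means as lines and 0 counts drawn as open symbols at 0.02 (SC, subcutaneous; D14, day 14). The 3 day 14 cabo tumors hold the lowest globin group means, control mice 7 and 9 sit highest for Hbb-bs at 104 and 223 CPM, and the subcutaneous IL-27 tumors sit above the subcutaneous controls for Alas2 and below them for Slc4a1.

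Alpha globin was lowest in the day 14 cabo tumors and highest in 1 EOS control tumor. Hba-a1 stood at 16.8, 24.3 and 66.0 CPM in the day 14 controls (mice 3, 5 and 7) and at 20.2, 27.9 and 18.97 CPM in the day 14 IL-27 tumors (mice 4, 6 and 8). It stood at 6.13, 10.4 and 5.08 CPM in the day 14 cabo tumors (mice 21, 25 and 27). All 3 cabo values were below all 3 control and all 3 IL-27 values. In the day 14 IL-27+cabo tumors Hba-a1 was 80.8, 7.0 and 11.9 CPM (mice 20, 22 and 24), so this group held the highest value of that day and 2 values near those of the cabo tumors. At EOS it was 124 and 28.8 CPM in controls (mice 9 and 13), 25.2 and 21.9 CPM with IL-27, 21.6 and 27.6 CPM with cabo, and 22.3 and 16.5 CPM with IL-27+cabo. Apart from mouse 9, the 7 EOS tumors lay within a narrow band. Hba-a2 followed the same order of extremes, from 2.66 CPM (cabo mouse 27, day 14) to 71.3 CPM (control mouse 9, EOS).

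By group mean, Hba-a1 ran from 76.4 ± 67.3 CPM (SD, n = 2) in EOS controls to 7.21 ± 2.83 CPM (SD, n = 3) in day 14 cabo tumors. The ranges of neighbouring groups overlapped at each step of that order except the last 2, where the subcutaneous controls (14.2 and 14.6 CPM) fell below all EOS IL-27+cabo values and above all day 14 cabo values. For Hba-a2 the last step alone was clear of overlap.

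Beta globin was also lowest on day 14 and highest in control mouse 9 at EOS, with Hbb-bs running from 2.95 to 223 CPM. Hbb-bs stood at 18.9, 26.2 and 104 CPM in the day 14 controls, at 26.5, 30.9 and 23.9 CPM with IL-27, at 5.65, 9.49 and 4.84 CPM with cabo, and at 34.7, 2.95 and 10.96 CPM with IL-27+cabo, in the same order of mice. At EOS it was 223 and 29.9 CPM in controls, 32.5 and 28.6 CPM with IL-27, 32.9 and 30.8 CPM with cabo, and 32.3 and 22.7 CPM with IL-27+cabo. The day 14 cabo values again lay below every control, IL-27 and EOS value. Hbb-bt, the other adult beta chain gene, ran from 1.23 CPM (cabo mouse 27, day 14) to 55.1 CPM (control mouse 9, EOS) and had the same lowest group, at 2.11 ± 0.938 CPM (SD, n = 3). By group mean Hbb-bs ran from 126 ± 137 CPM (SD, n = 2) in EOS controls to 6.66 ± 2.49 CPM (SD, n = 3) in day 14 cabo tumors, and every neighbouring pair in that order overlapped in range.

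Alas2, the heme enzyme gene, was below 5 CPM in 19 of 20 bone tumors, and both subcutaneous IL-27 tumors were above that level. It stood at 0.795, 1.30 and 4.68 CPM in the day 14 controls, 2.50, 2.00 and 0.845 CPM with IL-27, 0.443, 0.751 and 0.0871 CPM with cabo, and 0.559, 0.270 and 0.915 CPM with IL-27+cabo. The cabo value of mouse 27 rests on 6 counts. At EOS the values were 10.7 and 2.08 CPM in controls, and between 1.53 and 2.50 CPM in the 6 treated tumors. In the subcutaneous tumors Alas2 was 1.50 and 1.69 CPM in controls and 7.04 and 32.3 CPM with IL-27. The 2 IL-27 values lay far apart, and both exceeded both controls. In the order of group means, only the step from the subcutaneous controls (1.59 ± 0.135 CPM, SD, n = 2) down to the day 14 IL-27+cabo tumors (0.581 ± 0.323 CPM, SD, n = 3) was clear of overlap.

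Slc4a1 did not follow the globins. It was highest in the subcutaneous controls, at 3.31 and 2.00 CPM, and stood at 0.214 and 0.722 CPM in the subcutaneous IL-27 tumors. In the bone tumors it never exceeded 1.38 CPM, and it had 0 counts in IL-27+cabo mouse 20 on day 14 and mouse 28 at EOS. The day 14 cabo tumors (0.443, 0.542 and 0.407 CPM) lay inside the range of the day 14 controls (0.781, 0.314 and 0.522 CPM). The subcutaneous control group was the only Slc4a1 group whose range was clear of the next in the order of means.

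The first question of the bone model was what each treatment did by day 14. With cabo, none of the 6 members tested passed edgeR's quasi-likelihood test with Benjamini-Hochberg adjustment, against 1.89% of 18627 genes tested, although 5 had an unadjusted p under 0.05 and DESeq2 called 5. The log2 fold changes were -2.90 ± 0.65 (SE) for Hbb-bs, -2.64 ± 0.62 for Hbb-bt, -2.40 ± 0.61 for Hba-a2 and -2.31 ± 0.52 for Hba-a1, with edgeR adjusted p of 0.0727 to 0.102. Alas2 had a log2 fold change of -2.40 ± 0.85 (edgeR adjusted p = 0.194) and Slc4a1 of -0.21 ± 0.45 (edgeR adjusted p = 0.838). The median over the 6 members was -2.40, beside -0.01 over all genes tested. Without control mouse 7 the log2 fold change of Hbb-bs was -1.76 (edgeR adjusted p = 0.0778), those of the other 3 globins were -1.65 to -1.32 and that of Alas2 was -1.29, and without control mouse 3 the test called 2 members.

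Few other genes of the red cell lineage passed under cabo. Of 9 heme synthesis genes tested 0 passed in either direction (median log2 fold change -0.08), and the same held for 8 genes of hemoglobin handling (-0.04), 7 of iron transport (-0.06), 6 of erythroblastic island macrophages (0.41), 6 of marrow myeloid granules (-1.37) and the other globin tested, Hbq1b (-0.66). None of these sets can be read as unchanged from that alone. In the red cell membrane list 1 of 12 rose, Sptb (beta spectrin, log2 fold change 1.58 ± 0.31), and among erythroid regulators 1 of 10 rose, Sox6 (2.60 ± 0.30), a factor that is also used in muscle. Lrp1, a receptor for hemopexin-bound heme with many other ligands, rose (1.02 ± 0.16), as 1 of 6 clearance genes. Pf4 rose as 1 of 4 platelet genes tested (0.89 ± 0.15). The edgeR adjusted p for these 4 genes ranged from 0.00773 to 0.0496.

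Some endothelial and muscle genes passed the test in this comparison, in which no globin did. Of 8 endothelial genes 4 fell, namely Cldn5 (claudin-5 of tight junctions, log2 fold change -2.80 ± 0.26), Emcn (endomucin, -2.70 ± 0.24), Tie1 (-1.81 ± 0.26) and Kdr (the VEGF receptor 2, -1.56 ± 0.28), and all 8 were negative (median -1.36). The summed endothelial level was 128 to 144 CPM in cabo tumors and 189 to 299 CPM in controls. Skeletal muscle genes summed to 1176 to 1838 CPM in cabo tumors and 5.99 to 150 CPM in controls, and 4 of 13 rose. With the muscle level as a covariate the Hbb-bs value was -3.62 ± 1.93 (edgeR adjusted p = 0.796). The part of either cell type in the globin values was not tested.

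With IL-27 alone on day 14, 0 of 6 members passed edgeR's test (0% of 18519 genes), 0 had an unadjusted p under 0.05 and DESeq2 called 0. Globin log2 fold changes lay between -0.85 and -0.46 (SE 0.47 to 0.58). With IL-27+cabo, 0 of 6 members passed edgeR's test (0.064% of 18750 genes), 1 had an unadjusted p under 0.05 and DESeq2 called 0. The alpha globins sat near zero (Hba-a1 -0.04 ± 0.98) while Hbb-bs stood at -1.56 ± 0.99. Without mouse 20 the values were -1.91 for Hba-a1 and -2.83 for Hbb-bs. In the same comparison all 8 endothelial genes were negative (median -1.37, summed level at most 128 CPM) and all 13 muscle genes positive (median 5.81, summed level 1534 to 4869 CPM). The unadjusted p was under 0.05 for 7 and 13 of them and the edgeR adjusted p 0.0623 or more, and their part in the globin values was not tested. The departure from additive effects of both agents was 2.92 ± 1.14 for Hba-a1, and 0 of 6 members passed edgeR's test for it (0% of 19899 genes), with 2 showing an unadjusted p under 0.05 and 0 by DESeq2. Without mouse 20 that departure was 1.07.

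**Figure D2:**
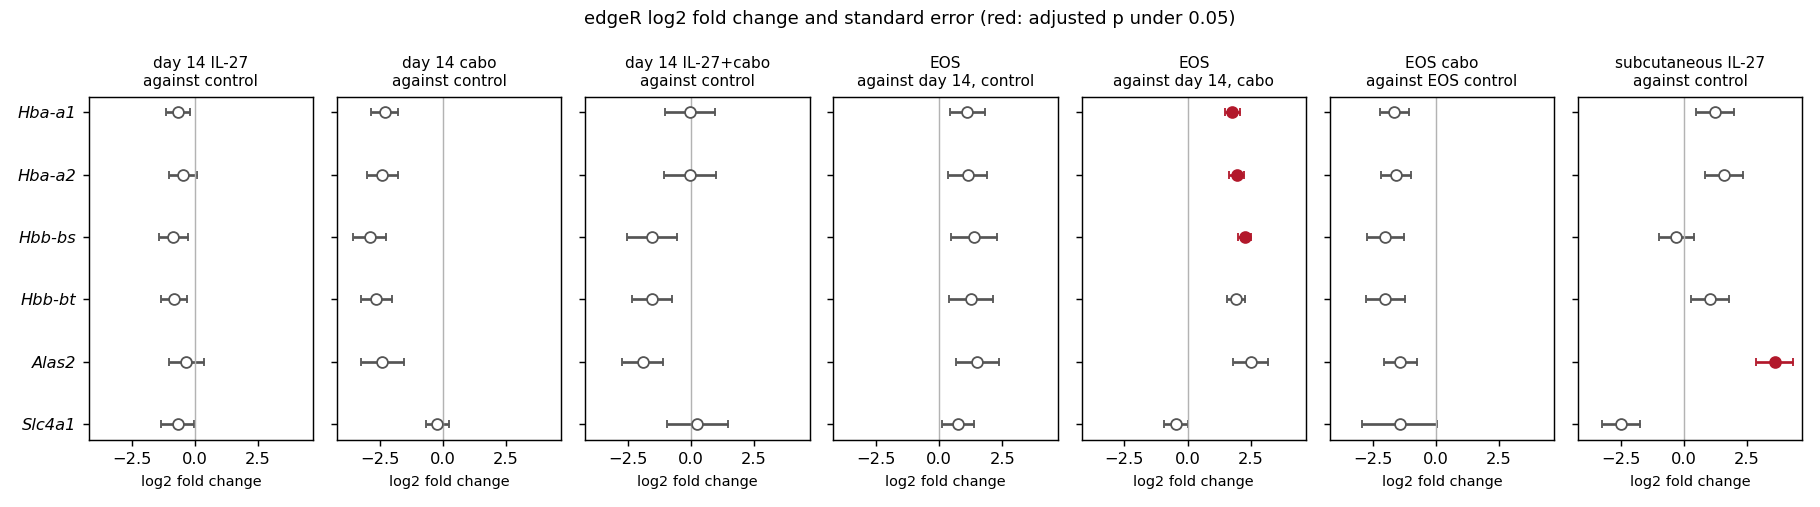
Points are edgeR log2 fold changes with standard errors for the 6 members tested, in 7 comparisons, red where the adjusted p was under 0.05. In the EOS against day 14 panel for cabo, 3 globins are red between 1.78 and 2.26, and in the subcutaneous panel Alas2 alone is red, at 3.61, with Slc4a1 at -2.51.

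The second question was how tumors at EOS compared with day 14 under the same treatment. In cabo tumors 3 of 6 members rose at EOS, beside 2.09% of 19144 genes called. Hbb-bs rose by 2.26 ± 0.27 on the log2 scale (4.80-fold, edgeR adjusted p = 0.0146), Hba-a2 by 1.96 ± 0.29 (3.88-fold, edgeR adjusted p = 0.0289) and Hba-a1 by 1.78 ± 0.30 (3.42-fold, edgeR adjusted p = 0.0415). Both EOS tumors exceeded all 3 day 14 tumors for each of the 4 globins. Hbb-bt had a log2 fold change of 1.91 ± 0.35 (edgeR adjusted p = 0.0522), Alas2 of 2.50 ± 0.69 (edgeR adjusted p = 0.135) and Slc4a1 of -0.45 ± 0.47 (edgeR adjusted p = 0.686). All 3 calls were lost without the low-count filter and in the fit of all 24 tumors, where the adjusted p for Hbb-bs was 0.0617 and 0.945. The fits without cabo mouse 21 or mouse 23 called 0 members, and those without mouse 27 or mouse 19 called 1, Hbb-bs.

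Endothelial genes were higher beside the globins. Of 8 endothelial genes 6 rose, led by Cldn5 (log2 fold change 3.94 ± 0.23), Emcn (3.31 ± 0.22), Tie1 (2.31 ± 0.25) and Esam (1.63 ± 0.19), and the summed level was 294 to 340 CPM at EOS. Muscle genes summed to 120 to 920 CPM at EOS, and 0 of 13 passed (median -1.57). In the red cell membrane list Aqp1, a water channel of red cells and of endothelium, rose (0.71 ± 0.13), and Sptb fell (-1.21 ± 0.14), of 12 tested. Pf4 fell (-1.24 ± 0.11), as 1 of 4 platelet genes. No erythroid regulator of 10, heme synthesis gene of 9, hemoglobin handling gene of 8, iron gene of 7, clearance gene of 6 or granule gene of 5 passed. The part of the endothelial cells in the globin rise was not tested.

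The other 3 treatments showed no such call between the times. In controls 0 of 6 members passed edgeR's test (0.104% of 19292 genes), 0 had an unadjusted p under 0.05 and DESeq2 called 0. Hbb-bs had a log2 fold change of 1.36 ± 0.91, and of -0.72 without EOS mouse 9. In IL-27 tumors 0 of 6 passed edgeR's test (0% of 19078 genes), with 0 showing an unadjusted p under 0.05 and 0 by DESeq2, and Hbb-bs at 0.18 ± 0.19. In IL-27+cabo tumors 0 of 6 passed edgeR's test (0% of 19365 genes), with 0 showing an unadjusted p under 0.05 and 0 by DESeq2, and Hbb-bs at 0.70 ± 0.95. Without mouse 20 Hbb-bs was at 1.98 ± 0.64 (edgeR adjusted p = 0.503), and the alpha globins turned from -0.86 to 1.03 (Hba-a1) and from -0.64 to 1.20 (Hba-a2), with 0 members called.

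Within EOS each treatment was set against the same 2 controls, so these 3 comparisons share samples. With IL-27, 0 of 6 members passed edgeR's test (0% of 20026 genes), although 5 had an unadjusted p under 0.05 (DESeq2 called 0). With cabo 0 of 6 passed edgeR's test (0% of 20026 genes), with 4 showing an unadjusted p under 0.05 (DESeq2 called 0). With IL-27+cabo 0 of 6 passed edgeR's test (0% of 20026 genes), with 5 showing an unadjusted p under 0.05 (DESeq2 called 1). The Hbb-bs log2 fold changes of -2.06 ± 0.75, -1.996 ± 0.75 and -2.19 ± 0.75 rested on control mouse 9. Without it they were 0.02, 0.09 and -0.10, and without mouse 13 the IL-27 comparison called 1 member.

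The difference between the 2 times in the change with treatment was tested directly. For cabo 0 of 6 members passed edgeR's test (0.0788% of 21563 genes), with 0 showing an unadjusted p under 0.05 and 0 by DESeq2. For IL-27+cabo the counts were also 0 of 6 by edgeR's test (0.0788% of 21563 genes), 0 showing an unadjusted p under 0.05 and 0 by DESeq2. The Hbb-bs differences were 0.88 ± 1.20 and -0.59 ± 1.20 on the log2 scale, and the second was 0.65 without mouse 20. The first turned direction when a single tumor was left out, and its range is given in the closing section. It draws on the EOS controls, where Hbb-bs was 223 CPM in mouse 9 and 29.9 CPM in mouse 13. So the globin rise between times in cabo tumors was not shown to differ from the change between times in controls.

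In the subcutaneous model IL-27 was compared with empty vector 1 week after implantation. Alas2 rose by 3.61 ± 0.73 on the log2 scale, or 12.2-fold (edgeR adjusted p = 0.0152). It was the only 1 of 6 members tested that passed, in a comparison where 20% of 19360 genes were called (682 up and 3198 down). Its group means were 19.7 ± 17.9 CPM with IL-27 and 1.59 ± 0.135 CPM in controls (SD, n = 2 each). Over the alternatives the adjusted p for Alas2 ranged from 6.55e-08 (DESeq2) to 0.139 (without control replicate 1), and the call was also lost without control replicate 2. Without IL-27 replicate 1 its log2 fold change was 4.3 and the test called 3 members, and without IL-27 replicate 2 it was 2.20 and the test called 2, Alas2 among them both times. The alpha globins had log2 fold changes of 1.22 ± 0.75 (Hba-a1) and 1.58 ± 0.76 (Hba-a2), and their ranges overlapped between groups. Hbb-bs was at -0.30 ± 0.70 and Hbb-bt at 1.03 ± 0.74, with edgeR adjusted p of 0.187 or more for all 4 globins. With the trend over GC content and gene length removed, Hba-a1 was at 3.53 and Hba-a2 at 3.87, and both passed (edgeR adjusted p = 0.0353 and 0.0262). Slc4a1 was at -2.51 ± 0.76 (edgeR adjusted p = 0.0606), and at -0.58 with that trend removed.

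Calls among other erythroid genes are read against the 20% of all genes called in this comparison, where 682 rose and 3198 fell. In the red cell membrane list 2 of 13 rose and 1 fell, which together is a share near that background. Falls outnumbered rises in the background, so it is not the share of rises alone. Dmtn (dematin), which binds actin under the membrane, was the gene of the list that fell (log2 fold change -1.96 ± 0.50). Gata1 had 8 and 0 counts with IL-27 and Klf1 had 0 in both tumors. Among 10 erythroid regulators Zfpm1 (the GATA1 cofactor FOG1, log2 fold change -6.89 ± 0.54) and Epor (the erythropoietin receptor, -4.79 ± 0.83) fell and 0 rose, again a share near the background. The edgeR adjusted p of Dmtn, Zfpm1 and Epor ranged from 0.00138 to 0.0342.

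Of 9 heme synthesis genes tested 5 fell and 0 rose (median -1.46), led by Alad, the enzyme that acts after Alas2, at 20.7 and 9.40 CPM in controls and 0.416 and 0.799 CPM with IL-27 (log2 fold change -4.62 ± 0.63). Urod (-2.04 ± 0.43) and Ppox (-1.46 ± 0.36) were among the other 4. Clearance genes fell in 2 of 6 cases, Lrp1 and Blvrb, and platelet genes in 2 of 4, Pf4 (-2.39 ± 0.43) and Itga2b (-2.43 ± 0.54). Hemoglobin handling (7 tested) and iron transport (7 tested) had 0 calls, and Maea fell as 1 of 6 genes of erythroblastic island macrophages. For the genes named here the edgeR adjusted p ranged from 0.00138 to 0.0319.

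Markers of other tissues also differed in the subcutaneous IL-27 tumors. Of 6 marrow myeloid granule genes 5 rose, among them Mpo (78 and 104 counts against 0 and 0, at least 29.4-fold higher against a limit of 3 counts per library), and the summed level was 37.1 to 38.2 CPM against 0.867 to 1.97 CPM. Of 13 skeletal muscle genes 12 rose, with summed levels of 405 to 989 CPM against 2.96 to 13.4 CPM. Of 8 endothelial genes 2 fell (Tie1 and Cldn5) and 0 rose, but 4 were positive (median 0.49), among them Pecam1 at 144 and 350 CPM against 95.1 and 112 CPM (edgeR adjusted p = 0.0957), and the summed level was 353 and 807 CPM against 330 and 370 CPM. Marrow B cell precursor genes summed to at most 1.17 CPM in any of the 24 tumors, and the single one tested did not pass. The part of these tissues in the Alas2 rise was not tested.

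The change of Alas2 with IL-27 was larger in the subcutaneous than in the day 14 bone tumors, by 3.98 ± 1.16 on the log2 scale (edgeR adjusted p = 0.0310). It was the only 1 of the 6 members called in that comparison, added after the data were seen, in which 23.5% of 20977 genes were called. With the GC content and length trend removed the difference was 3.75 (edgeR adjusted p = 0.0573). The 2 models also differ in site, harvest time, cell number, luciferase marking and library series, which cannot be told apart. The labels name the PvP vehicle for the bone tumors only, which cannot be told apart from the model either.

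**Figure D3:**
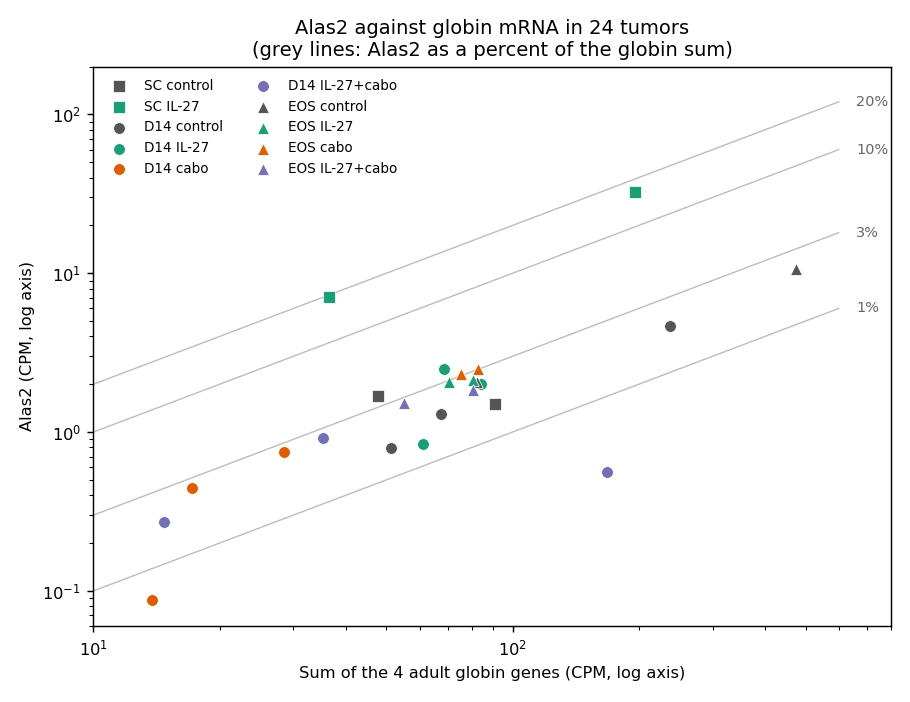
Each point is 1 of 24 tumors, with the summed CPM of 4 globin genes on the horizontal and Alas2 CPM on the vertical axis, both logarithmic, and grey lines of constant percent. The subcutaneous IL-27 tumors lie at 19.3% and 16.5%, above the other 22 tumors, and IL-27+cabo mouse 20 lies lowest at 0.334%.

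Alas2 set against globin in the same tumor showed the same split. Alas2 amounted to 19.3% and 16.5% of the globin sum in the subcutaneous IL-27 tumors, and to 1.65% and 3.55% in the subcutaneous controls. In the 20 bone tumors the percent ran from 0.334 to 3.66, with a median of 2.45. The 8 EOS tumors were close together, between 2.26% and 3.10%, although their globin sums ran from 55.2 to 473 CPM.

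The day 14 bone controls against the subcutaneous controls asked whether growth in the tibia brought more erythroid mRNA. None of 6 members passed edgeR's test (2.27% of 19452 genes were called), 1 had an unadjusted p under 0.05 and DESeq2 called 1. Hba-a1 was at 1.28 ± 0.56 and Hbb-bs at 0.55 ± 0.76 on the log2 scale, higher in bone. The Hbb-bs value turned direction when a single tumor was left out. Slc4a1 was at -2.33 ± 0.51, lower in bone (edgeR adjusted p = 0.065). Without subcutaneous control replicate 2, 1 member passed. Add2 (beta adducin) rose as 1 of 12 red cell membrane genes (1.97 ± 0.30), and Ltf and Ngp rose as 2 of 6 granule genes. Slc40a1 (ferroportin) fell as 1 of 7 iron genes (-1.78 ± 0.26) and Hp (haptoglobin) as 1 of 6 clearance genes (-5.64 ± 0.73). The bone and subcutaneous tumors carry different library series in their names, so site and library series cannot be told apart.

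**Figure D4:**
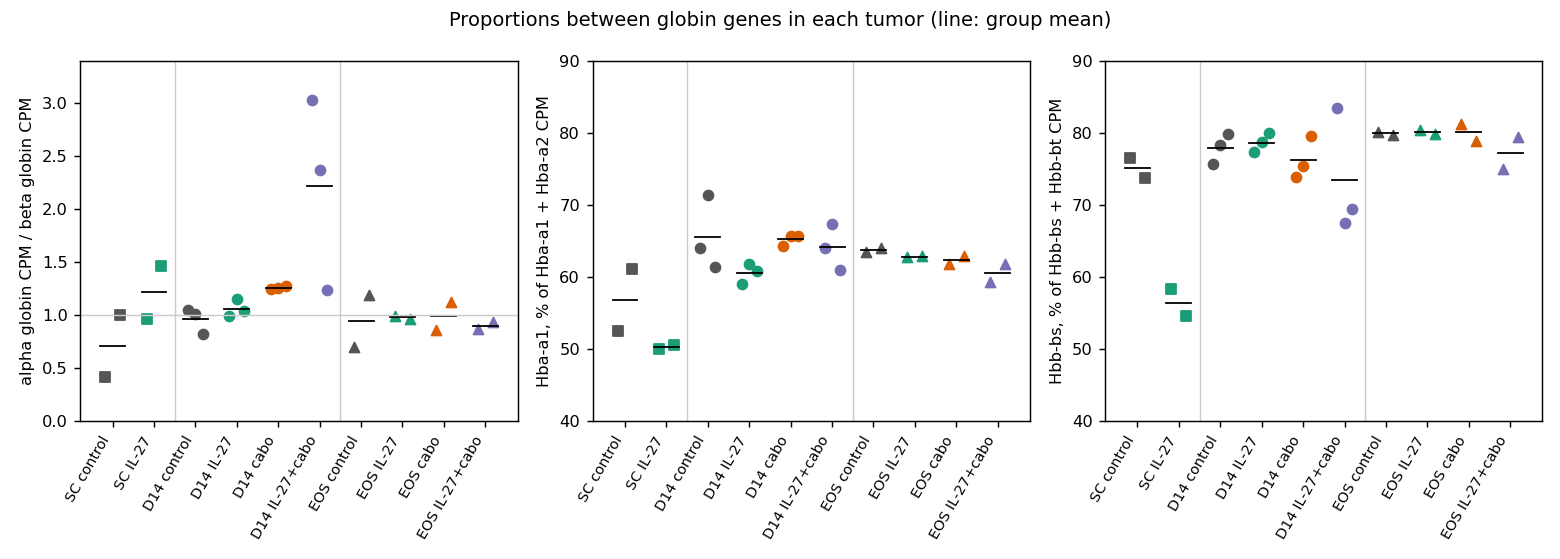
Panels give, per tumor, the alpha to beta globin ratio, Hba-a1 as a percent of both alpha genes and Hbb-bs as a percent of both beta genes (percent axes run from 40 to 90), with group means as lines. IL-27+cabo mice 20 and 22 stand out at ratios of 3.04 and 2.38, and the subcutaneous IL-27 tumors hold the lowest shares of Hba-a1 and Hbb-bs.

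The proportions between globins were steadier than their levels. The alpha to beta ratio of summed CPM lay between 0.421 and 1.47 in 22 tumors. It was 3.04 in IL-27+cabo mouse 20 and 2.38 in mouse 22 on day 14. The third tumor of that group, mouse 24, had a ratio of 1.24, close to the cabo tumors at 1.24, 1.26 and 1.28. Mouse 22 held 1094 globin counts in all.

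Within the pairs the share of the first copy was lowest in the subcutaneous IL-27 tumors. Hba-a1 made up 59.0% to 71.5% of alpha globin in the 20 bone tumors, 52.6% and 61.1% in the subcutaneous controls, and 50.0% and 50.5% in the subcutaneous IL-27 tumors. Hbb-bs made up 67.6% to 83.5% of beta globin in bone, 76.5% and 73.8% in the subcutaneous controls, and 58.3% and 54.6% with subcutaneous IL-27. These shares rest on how reads of near-identical copies were divided.

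Over the 20 bone tumors the globins and Alas2 varied together, whereas no relation of Slc4a1 to Hbb-bs passed the test. The correlation of log2 CPM with Hbb-bs was r = 0.93 for Hba-a1, 0.94 for Hba-a2, 0.98 for Hbb-bt and 0.89 for Alas2 (Spearman rho 0.91, 0.93, 0.88 and 0.76). Hbb-bs and Hbb-bt are near-identical copies whose reads were divided between them, so their r says little about separate genes. The values for Hba-a1 and Hba-a2 are likewise not independent of each other. In a family of 8 relations the permutation p of r was 1e-05 for each, the smallest that 100000 resamples can give, and 2e-05 after Benjamini-Hochberg adjustment. Tumors were shuffled freely across treatment groups and times, so these p-values also take in differences between groups. The permutation p of rho was 1e-05 for the 3 globins and 0.00019 for Alas2 (adjusted 2.67e-05 and 0.00038). For Slc4a1 r was -0.06 (permutation p = 0.809, adjusted 0.809) and rho -0.19 (permutation p = 0.419, adjusted 0.479). Without the 2 tumors farthest from the median of Hbb-bs, r was 0.91, 0.93, 0.97 and 0.84 for the 4 genes that followed, and -0.20 for Slc4a1. Without mouse 20, r was 0.98 for each of the other 3 globins and 0.93 for Alas2, with rho of 0.89, 0.92, 0.94 and 0.90, and Slc4a1 was at r = 0.0033 and rho = -0.12. Within day 14 r was 0.92, 0.93, 0.98 and 0.84. Within EOS r was 0.98, 0.99, 0.99 and 0.99, but rho was 0.43, 0.55, 0.69 and 0.74, so the EOS values of r rest on mouse 9. For Slc4a1 r was -0.37 and rho -0.48 within day 14, and r was 0.60 and rho 0.55 within EOS.

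**Figure D5:**
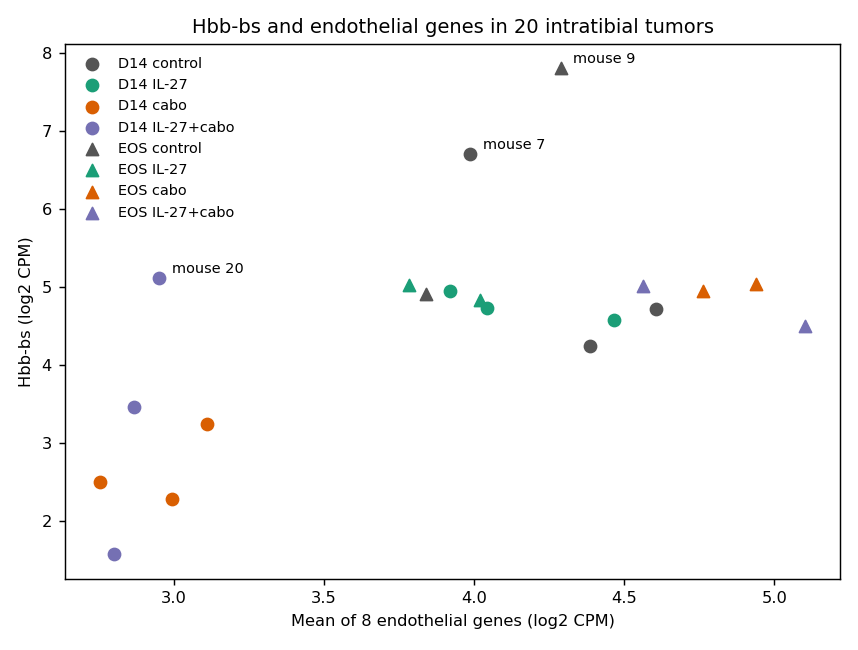
Each point is 1 of 20 bone tumors, with the mean log2 CPM of 8 endothelial genes on the horizontal and Hbb-bs log2 CPM on the vertical axis. Day 14 cabo and IL-27+cabo tumors lie at the left, mouse 20 above the other 5, and control mice 7 and 9 lie highest.

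The relation of Hbb-bs to endothelial genes was weaker and did not hold within EOS. For the mean of the 8 endothelial genes r was 0.58 (permutation p = 0.00609, adjusted 0.00812) and rho 0.36 (permutation p = 0.118, adjusted 0.157). The p-values of this paragraph too come from shuffling across treatment groups and times, so they do not measure a relation within groups. Without the 2 farthest tumors r was 0.55, within day 14 it was 0.64 and within EOS -0.16. Without mouse 20 r was 0.64 (permutation p = 0.00254, adjusted 0.00339) and rho 0.47 (permutation p = 0.0437, adjusted 0.0583). For the mean of skeletal muscle genes r was -0.61 (permutation p = 0.00356, adjusted 0.0057) and rho -0.43 (permutation p = 0.0601, adjusted 0.0962), with r = -0.45 without the 2 farthest tumors, -0.52 within day 14 and -0.42 within EOS. Without mouse 20 r was -0.70 (permutation p = 0.00059, adjusted 0.000944) and rho -0.61 (permutation p = 0.00638, adjusted 0.0102), so the rank relation to muscle passed 0.05 after adjustment only without that tumor among the sets of tumors tried. For platelet genes r was 0.08 (permutation p = 0.732, adjusted 0.809) and rho 0.16 (permutation p = 0.492, adjusted 0.492), with r = 0.12 without the 2 farthest tumors, 0.23 within day 14 and -0.40 within EOS, and r = 0.0345 and rho = 0.0632 without mouse 20.

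The genes most like Hbb-bs over the 20 bone tumors, of 21563 considered, were Cdt1 (r = 0.84), Impa2 (0.79), Gpihbp1 (0.78), Gfra1 (0.77), Vps16 (0.76), Angpt2 (0.76), Cldn5 (0.75) and Wscd1 (0.75), leaving the members aside. Gpihbp1, Angpt2 and Cldn5 are genes of vascular endothelium, and Cdt1 licenses DNA replication. Without mouse 20 the coefficients of these 8 genes were 0.76 to 0.86, with Angpt2 at 0.85. They describe these tumors, which share treatment groups and harvest times. For Klf1, whose counts were 0 in most tumors, the closest were Tcfl5 (0.82, also without mouse 20) and Usp39 (0.77, and 0.78 without mouse 20), and such sparse counts make this no finding.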

How the data were processed

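Poly(A) RNA libraries of 24 tumors in 10 groups were sequenced as paired ends with a stranded kit. The deposited values are raw counts of each gene under its Ensembl identifier, with no normalization by the authors. They trimmed reads with cutadapt, mapped them with HISAT2 to the mouse genome and assembled them with StringTie; tool versions and the counting program are not given in the sources used here. The submitters' processing notes name GRCh38, a human build, although the identifiers are those of mouse. Among counts of 1 to 20, 30.4% to 35.5% were multiples of 4, which was not explained in the sources used here. Ahsp was not analysed here, and some genes of the lists are counted but not reported by name.

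From the counts, edgeR 4.0.16 (R 4.3.3; filterByExpr, TMM) gave quasi-likelihood F tests, two-sided, with Benjamini-Hochberg adjustment over all genes that passed the filter, and a call at an adjusted p under 0.05. Each fit held just the tumors of its comparison, and the EOS comparisons drew on 1 fit of 8 tumors. Levels are TMM-scaled CPM, and log2 CPM used a prior count of 2. Alternatives were DESeq2 1.42.0, DESeq2's size factors, no filter, removal of a GC and length trend (spline, 5 degrees of freedom), counts divided by 4, all tumors in 1 fit, a muscle covariate, summed globin copies, a replicate block and leaving out each tumor. The fitting code was first tested on simulated counts. Genes named for a test were the 7 members, at most 4 genes of smallest p per list, and the 8 genes most correlated with Hbb-bs and Klf1. Some list genes were named for their counts or levels alone, among them Gata1, Gfi1b, Kel, Tspo2 and the embryonic globins. The members and the 13 lists were chosen with earlier results of these data known.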

Additional observations from a re-analysis of the deposited data

Results flagged for a closer look

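The change of Alas2 with IL-27 was flagged because it differed between the subcutaneous and the day 14 bone tumors, by 3.98 ± 1.16 on the log2 scale (edgeR quasi-likelihood test, Benjamini-Hochberg adjusted p = 0.0310). Both subcutaneous IL-27 tumors exceeded both subcutaneous controls, whereas the day 14 bone groups overlapped. Groups held 2 or 3 tumors, and no outlier test was run. Leaving out single tumors was run within each model, and not for this difference between them.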

How the results depend on the processing

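Members called changed with the settings as follows. DESeq2 called 3 in subcutaneous IL-27 tumors, 5 with cabo on day 14, 5 between EOS and day 14 under cabo, 1 with IL-27+cabo at EOS and 1 between bone and subcutaneous controls. Without the GC content and length trend the counts were 3 in subcutaneous IL-27 tumors, 1 between sites and 2 for the difference in IL-27 change between models; with counts divided by 4 they were 2 in subcutaneous IL-27 tumors and 1 between sites. Between EOS and day 14 under cabo, 0 were called without a filter and 0 with all tumors in 1 fit. Leaving out 1 tumor gave 0 to 3 in subcutaneous IL-27 tumors, 0 to 2 with cabo on day 14, 0 to 4 between EOS and day 14 under cabo, 0 to 1 with IL-27 at EOS and 0 to 1 between sites; where that left 1 tumor in a group, it was assumed to vary like the other group. The replicate block of the subcutaneous tumors called 2, and 3 with the GC and length trend also removed; same-numbered tumors deviated together by only r = 0.03 across genes, so the numbers are not taken as pairs.

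Directions that turned belonged to values that had not passed. Hbb-bs in subcutaneous IL-27 tumors was 0.29 with the GC and length trend removed, 0.15 with globin copies summed and 0.14 with the replicate block and that trend removed. Hba-a1 with IL-27+cabo on day 14 was 0.0135 with counts divided by 4, and Slc4a1 with cabo on day 14 was 1.40 with the muscle covariate. Leaving out 1 tumor gave, in subcutaneous IL-27 tumors, -0.63 to 2.00 for Hba-a1, -0.24 to 2.35 for Hba-a2, -1.56 to 0.64 for Hbb-bs and -0.40 to 1.82 for Hbb-bt. On day 14 it gave -1.91 to 0.76 for Hba-a1 with IL-27+cabo, -0.49 to 0.15 for Slc4a1 with cabo and -1.24 to 0.28 for Hbb-bs with IL-27. For Hbb-bs it gave -0.72 to 2.50 between EOS and day 14 in controls, -2.88 to 0.0243 with IL-27 and -2.82 to 0.0921 with cabo at EOS, -0.24 to 2.98 and -1.71 to 1.48 for the differences between times with cabo and with IL-27+cabo, and -0.58 to 1.49 between sites. The cause was not tested.

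Of 417 alternative values for 33 fold changes given in the text, 346 kept direction and side of the threshold, 19 lost a call, 29 gained one and 23 turned direction. The count of all genes called with cabo on day 14 ran from 0 (muscle covariate) to 1331 (DESeq2), and between EOS and day 14 under cabo from 47 to 1650. In the subcutaneous IL-27 comparison it ran from 1767 to 7076, and between sites from 19 to 3431. Klf1, at 14 counts or fewer per tumor, is too shallow for a test, and groups of 2 or 3 tumors limit every comparison.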
